A study of Homo sapiens with 6 samples.

Results

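Genes of cholesterol and fatty acid synthesis were described in IGR37 cells, a human melanoma line. The 33 genes were chosen by function from the gene symbols of the authors' deposited table: regulators of the sterol response, enzymes of sterol synthesis, a sterol carrier, and enzymes that make, desaturate, elongate and activate fatty acids. All 33 had a row among 12558 gene rows. By the labels, the study compared 3 libraries from cells without doxycycline with 3 libraries from cells kept with doxycycline (20 ng/ml) for 24 h. All 6 came from a line selected with G418 that carries a doxycycline-switched CTNNB1 transgene, inserted with a piggyBac vector and extended by a viral nuclear localisation signal. Libraries read the 3' end of polyadenylated RNA. Whether a group's 3 samples were grown as separate cultures is not labelled, so p-values cover the spread among these libraries alone, possibly a technical one. Cells with doxycycline but without the transgene were not analysed here.

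Cholesterol is built from acetyl-CoA through mevalonate, farnesyl diphosphate, squalene and lanosterol, and fatty acids from acetyl-CoA through malonyl-CoA. When membrane sterol is low, SCAP carries SREBP proteins from the endoplasmic reticulum to the Golgi, where they are cut to release transcription factors. SREBP-2 mainly drives sterol genes and SREBP-1 mainly fatty acid genes, and INSIG proteins hold SCAP back when sterol is plentiful.

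All values are from, or computed from, the authors' deposited table, which holds 1 edgeR comparison and no value per library. Neither single-sample values with an SD nor sequencing depths can be given. The table's header does not name the groups or their order. The fold change is a ratio, so its top is called here the numerator group and its bottom the denominator group; "higher" and "lower" mean higher and lower in the numerator group. CTNNB1, the induced gene, was, in the authors' deposited table, 3.89-fold higher (FDR 1.24e-08). That is the sign of doxycycline over no doxycycline, but the order is not stated. A gene is called changed when its deposited edgeR FDR, the p-value adjusted over all rows, is under 0.05. Errors are approximate standard errors (SE), the deposited log2 fold change divided by the square root of the deposited F. A level in CPM, reads scaled to library size, for each group was worked out from the deposited average and fold change, taking the average as the mean of both groups. Since 3' libraries count about 1 read per transcript, CPM of different genes need no length scaling.

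Markers of melanocytes, the cells melanoma arises from, were low on 1 side of the deposited comparison, though the labels give 1 melanoma line for all samples. All 8 melanocytic markers were higher, with log2 values from 4.22 to 6.67, and summed to 116 CPM in the denominator group and 7665 CPM in the numerator group; MITF, their main factor, had 32.0 and 596 CPM. Of 8 fibroblast markers 5 had rows, 4 lower and 1 higher, and their sum was 377 and 10.8 CPM. Of 7 epithelial markers 6 had rows, 5 lower and 1 higher, with 363 and 17.2 CPM over the 3 with reads in both groups. Of 6 blood and endothelial markers 3 had rows, 2 lower (PECAM1 and CDH5) and 1 higher (CD68), at 16.0 and 13.0 CPM in sum. The denominator group thus had little melanocytic RNA, and whether both groups are the labelled libraries cannot be settled from a table without sample names. The part of these markers in the changes of the lipid genes was not tested. In bulk RNA fewer cells of a kind and less RNA per cell cannot be told apart.

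In this comparison 2 genes had the largest changes of the 33 in each direction: FASN, which builds palmitate, was 5.34-fold higher, and DHCR7, which makes cholesterol from its immediate precursor, was 11.1-fold lower, both in the authors' deposited table. Several sterol enzymes (HMGCS1, FDFT1, SQLE, MSMO1, SC5D) were 1.64- to 2.03-fold higher, while EBP and the sterol carrier STARD4 were lower. Of the 33 genes, 11 were higher and 8 lower by the deposited FDR, and 14 did not pass. The shares were 33.3% higher and 24.2% lower, against 24.5% higher and 26.4% lower among all genes. In either direction 57.6% of the genes were called, against 50.9% of all genes, so the number of called genes was near the background. The median log2 fold change of the set was 0.24, that of all genes -0.01 with quartiles at -0.61 and 0.55.

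By deposited FDR and fold, 4 genes (12.1%) were at least 2-fold higher, FASN, ACSL1, MSMO1 and SQLE, against 13.3% of all genes. On the other side 3 genes (9.09%), DHCR7, FADS2 and STARD4, were at least 2-fold lower, against 15.6% of all genes. The genes' average level had a median of 53.5 CPM against 22.3 CPM for all genes. Set against genes of like level, FASN and DHCR7 were the 2 of 33 that lay outside the middle 90% of log2 fold changes. The size of the FASN change exceeded that of 88.0% of all genes, and the size of the DHCR7 change exceeded that of 91.9%.

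**Figure D1:**
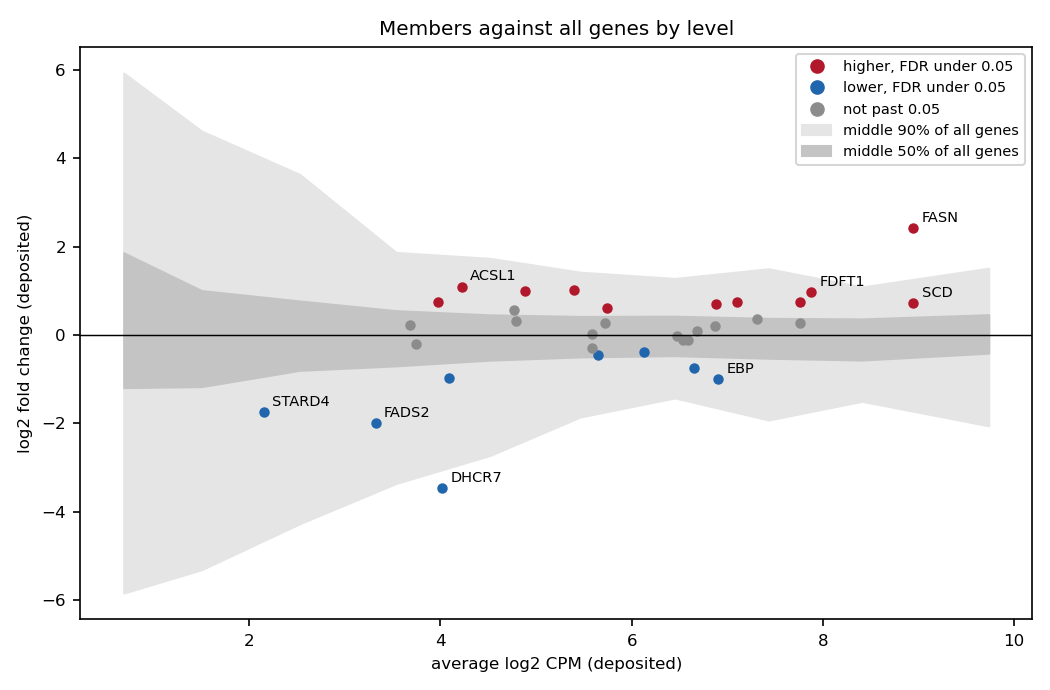
Deposited average log2 CPM (x axis) and log2 fold change (y axis) of the 33 genes, over bands that hold the middle 50% and 90% of all 12558 genes at each level. FASN lies above and DHCR7 below the outer band; the other genes lie inside it.

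The 59 spike-in RNAs, synthetic transcripts added to each sample, had a deposited median of 0.57 on the log2 scale, with quartiles at 0.40 and 0.69. Whether equal amounts were added per cell is not given in the sources used here. Centred on that median, 4 genes were higher, FASN, FDFT1, SQLE and MSMO1, and 17 were lower, which is 12.1% and 51.5% of the set. Among all genes 11.3% were higher and 52.3% lower. Every modest increase below is therefore relative to the other genes of the library, and each is given as deposited unless stated.

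**Figure D2:**
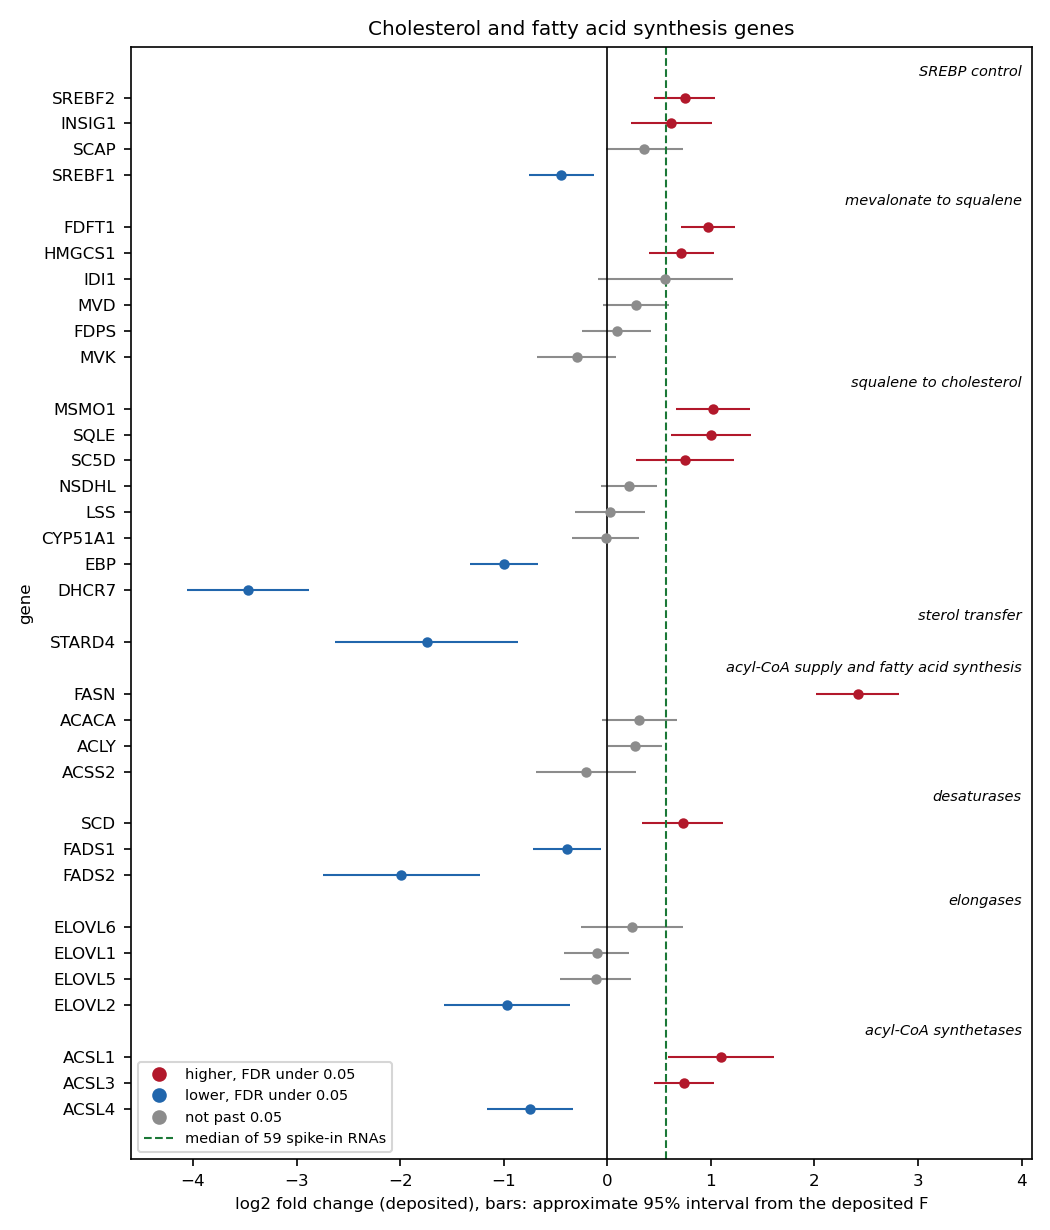
Deposited log2 fold change of each gene by role, with approximate 95% intervals computed from the deposited F; colours give the call at FDR under 0.05 and the dashed line the spike-in median of 0.57. FASN at 2.42 and DHCR7 at -3.47 are the extremes, and most called increases lie close to the dashed line.

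The promoters of these genes are shown because SREBP proteins bind short sterol regulatory elements and act together with NF-Y, a factor that binds CCAAT boxes. RefSeq promoter windows (GRCh38.p14, 250 bases before to 50 after the annotated start) were found for 30 of the 33 genes. FDFT1, SQLE and FASN had no entry. Shown 5′ to 3′ are 3 genes that were higher and 3 that were lower, each with its first entry in the table. They were picked for having a CCAAT match; the other 5 lower genes, SREBF1, FADS1, FADS2, ELOVL2 and ACSL4, have none in their first window. Capitals mark CCAAT on either strand (ATTGG on the strand shown) and, in SREBF2, a match to TCACNCCAC, the letters searched for a sterol regulatory element.
SREBF2 (chr22:41832855-41833154, plus strand): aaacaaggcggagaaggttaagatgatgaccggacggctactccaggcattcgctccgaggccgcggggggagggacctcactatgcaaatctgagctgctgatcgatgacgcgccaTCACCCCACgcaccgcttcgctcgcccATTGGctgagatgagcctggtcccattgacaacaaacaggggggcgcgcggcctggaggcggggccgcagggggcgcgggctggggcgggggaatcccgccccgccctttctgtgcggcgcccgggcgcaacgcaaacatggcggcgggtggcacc
HMGCS1 (chr5:43313363-43313662, minus strand): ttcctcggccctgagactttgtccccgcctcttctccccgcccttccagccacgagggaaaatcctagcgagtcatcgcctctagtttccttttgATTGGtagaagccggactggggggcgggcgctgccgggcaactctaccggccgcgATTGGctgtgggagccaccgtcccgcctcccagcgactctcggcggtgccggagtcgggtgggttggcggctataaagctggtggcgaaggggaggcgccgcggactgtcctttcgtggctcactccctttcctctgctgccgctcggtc
MSMO1 (chr4:165327419-165327718, plus strand): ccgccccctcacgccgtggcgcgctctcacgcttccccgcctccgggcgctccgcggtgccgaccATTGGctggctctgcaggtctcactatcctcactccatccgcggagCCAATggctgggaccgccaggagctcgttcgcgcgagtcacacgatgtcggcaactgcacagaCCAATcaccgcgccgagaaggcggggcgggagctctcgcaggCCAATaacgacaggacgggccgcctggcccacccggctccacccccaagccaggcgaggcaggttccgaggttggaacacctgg
EBP (chrX:48521558-48521857, plus strand): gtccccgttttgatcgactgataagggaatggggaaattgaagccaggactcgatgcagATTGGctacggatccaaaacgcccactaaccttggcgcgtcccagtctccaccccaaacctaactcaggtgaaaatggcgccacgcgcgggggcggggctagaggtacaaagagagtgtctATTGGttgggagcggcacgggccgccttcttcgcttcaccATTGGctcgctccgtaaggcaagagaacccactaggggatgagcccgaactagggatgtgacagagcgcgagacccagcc
STARD4 (chr5:111512486-111512785, minus strand): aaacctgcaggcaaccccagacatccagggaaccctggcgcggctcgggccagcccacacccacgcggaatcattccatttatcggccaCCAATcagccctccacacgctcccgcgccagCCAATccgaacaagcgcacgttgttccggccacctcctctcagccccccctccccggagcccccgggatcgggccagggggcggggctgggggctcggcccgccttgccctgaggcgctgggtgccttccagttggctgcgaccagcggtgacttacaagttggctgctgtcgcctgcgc
DHCR7 (chr11:71448344-71448643, minus strand): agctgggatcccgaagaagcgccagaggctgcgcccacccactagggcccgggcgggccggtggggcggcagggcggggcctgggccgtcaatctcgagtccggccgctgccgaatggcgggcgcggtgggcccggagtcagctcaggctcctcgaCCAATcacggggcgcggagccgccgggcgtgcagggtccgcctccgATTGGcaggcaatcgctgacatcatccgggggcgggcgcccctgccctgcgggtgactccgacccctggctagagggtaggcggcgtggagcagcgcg

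In the first window of each gene, 19 of 30 (63.3%) held CCAAT on either strand, against 35.7% of 27305 gene symbols in the RefSeq table. At least 2 such matches were found in 12 of 30 (40.0%), against 11.3% of all symbols. By call, 7 of 8 higher genes, 3 of 8 lower genes and 9 of 14 genes not called had a match; the share in the lower genes was near that of all symbols, and the differences were not tested. When all windows of a gene were searched, 23 of 30 (76.7%) had CCAAT, against 39.7%. The windows were richer in G and C than those of other genes, with a median of 69.3% against 58.3%, and what part this has in the shares was not tested.

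Sterol regulatory element letters (TCACNCCAC, either strand) were in the first window of SREBF2 only, 1 of 30 genes (3.33%), against 1.15% of all symbols; ACSL1 had a match in another of its windows. The E-box CACGTG, which reads the same on both strands and binds USF, MYC and MITF family factors, was in 5 of 30 (16.7%), against 7.43% of symbols. Those were INSIG1, SC5D, SCAP, LSS and ELOVL5. The M-box letters CATGTG, a MITF site, were in 0 of 30 first windows, against 11.2% of symbols, and in any window in 2 of 30 (6.67%), ACACA and ACSL1, against 13.4%. The TCF/LEF letters CTTTGAT were also in 0 of 30, against 2.64%. A match is a run of letters and not a measured binding site, and a missing match covers only this window and these letters.

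**Figure D3:**
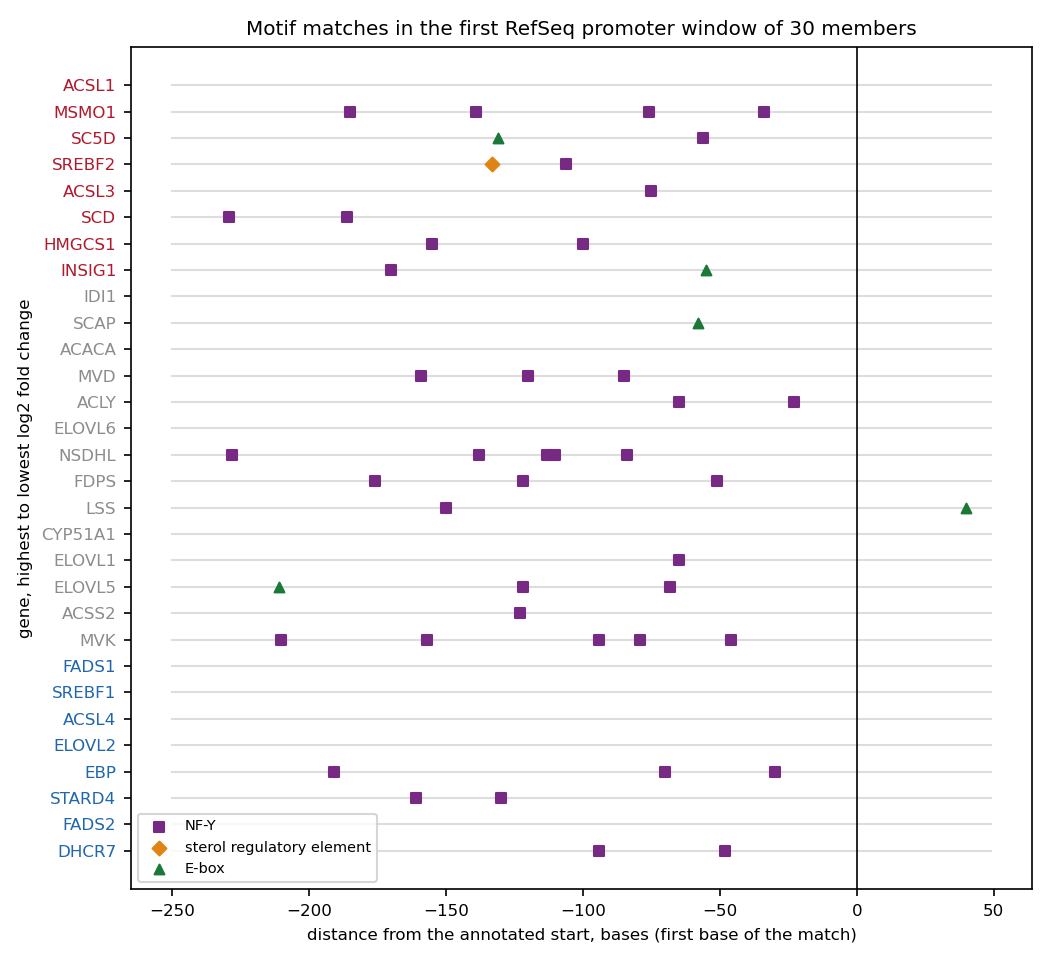
Positions of the motif matches relative to the annotated start (x axis, bases) in the first RefSeq window of 30 genes, ordered from the highest to the lowest log2 fold change, with gene names coloured as red for higher, blue for lower and grey for not called. The 42 CCAAT squares have a median position of -111.5 and fall in genes of all 3 colours.

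Among the 4 regulators, SREBF2 and INSIG1 were higher, SREBF1 was lower and SCAP was not called. SREBF2, which encodes SREBP-2, was, in the authors' deposited table, 1.68-fold higher (log2 0.75, SE 0.14, edgeR FDR 0.000409). Its level went from 103 CPM in the denominator group to 172 CPM in the numerator group. INSIG1, itself a target of SREBP and its brake, was 1.53-fold higher as deposited (SE 0.18, edgeR FDR 0.0110). SREBF1 was 1.36-fold lower (log2 -0.45, SE 0.15, edgeR FDR 0.0201). Its SREBP-1a and SREBP-1c forms share their 3' end and are counted as one. SCAP did not pass (log2 0.36, edgeR FDR 0.103). Relative to the spike-ins neither SREBF2 nor INSIG1 passed, with log2 values of 0.18 and 0.05, while SREBF1 was lower at -1.02. With the 4 degrees of freedom that the libraries alone give, SREBF1 and INSIG1 had adjusted p-values of 0.0880 and 0.0702.

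From acetyl-CoA to squalene, 2 of 6 enzymes were higher and none was lower in the authors' deposited table; their median was 0.42 (log2). HMGCS1, which makes HMG-CoA, was 1.64-fold higher (log2 0.71, SE 0.15, edgeR FDR 0.00100), from 89.6 to 147 CPM. FDFT1, which joins farnesyl units into squalene and so commits them to sterols, was 1.96-fold higher (log2 0.97, SE 0.12, edgeR FDR 1.23e-05), from 159 to 311 CPM. FDFT1 was the most abundant of the sterol enzymes in the numerator group, while in the denominator group EBP had 160 CPM. The enzymes between them did not pass. IDI1, which isomerises isopentenyl diphosphate, had a log2 fold change of 0.56 with a wide error (SE 0.30, edgeR FDR 0.140). MVD (0.28), FDPS (0.09) and the mevalonate kinase MVK (-0.30) had edgeR FDRs of 0.135, 0.660 and 0.183.

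From squalene to cholesterol the 8 enzymes went in both directions, 3 higher and 2 lower in the authors' deposited table. SQLE, the oxygen-dependent squalene epoxidase, was 2.01-fold higher (log2 1.00, SE 0.18, edgeR FDR 0.000320), from 19.6 to 39.4 CPM. MSMO1, which removes methyl groups at carbon 4, was 2.03-fold higher (log2 1.02, SE 0.17, edgeR FDR 0.000139), from 27.8 to 56.5 CPM. SC5D, which adds a ring double bond near the end of the pathway, was 1.68-fold higher (SE 0.22, edgeR FDR 0.0109), from 11.7 to 19.8 CPM. It did not pass with 4 degrees of freedom (adjusted p = 0.0700) or relative to the spike-ins (log2 0.18, adjusted p = 0.489). The other 3 of the 8 did not pass: LSS, which closes the rings, had a log2 fold change of 0.03, the demethylase CYP51A1 of -0.01 and NSDHL, which acts with MSMO1, of 0.21. Their approximate 95% intervals were -0.31 to 0.37, -0.34 to 0.31 and -0.06 to 0.48, so a 2-fold change lies outside each.

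The lower enzymes act late in the pathway. DHCR7, on the minus strand of chromosome 11 at 71428193 to 71452868 (GENCODE 44, hg38), was, in the authors' deposited table, 11.1-fold lower (log2 -3.47, SE 0.27, edgeR FDR 1.10e-07). Its level went from 29.8 CPM in the denominator group to 2.69 CPM in the numerator group. EBP, which shifts a double bond in the sterol ring just ahead of SC5D, was just under 2-fold lower (SE 0.15 on the log2 scale, edgeR FDR 8.18e-05), from 160 to 79.9 CPM. SC5D, which acts between EBP and DHCR7, was higher as deposited, with the limits given above. The summed CPM of the 8 enzymes was 494 in the denominator group and 460 in the numerator group. For the 6 enzymes up to squalene the sums were 470 and 697 CPM.

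STARD4, a soluble carrier that moves cholesterol between membranes, was, in the authors' deposited table, 3.35-fold lower (log2 -1.74, SE 0.41, edgeR FDR 0.00275). It had the lowest level of the 33 genes, 4.46 CPM on average, and the widest error. Its adjusted p was 0.0437 with 4 degrees of freedom.

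**Figure D4:**
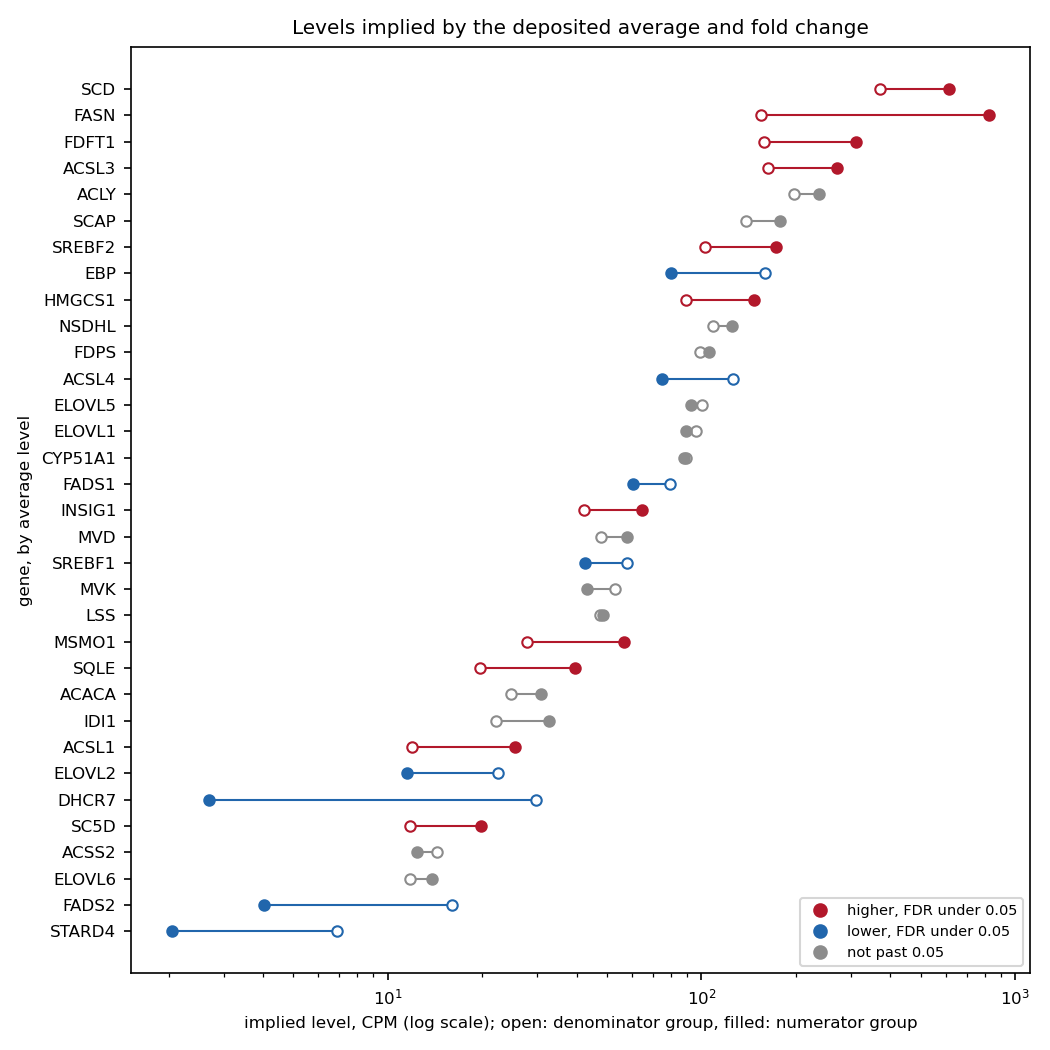
Level of each gene in the denominator group (open) and the numerator group (filled), in CPM on a log scale, worked out from the deposited average and fold change, without replicate values. FASN moves from 155 to 827 CPM and passes SCD, and DHCR7 moves from 29.8 to 2.69 CPM.

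Of the 4 genes of acetyl-CoA supply and fatty acid synthesis, 1 was called. FASN, on the minus strand of chromosome 17 at 82078338 to 82098294, was, in the authors' deposited table, 5.34-fold higher (log2 2.42, SE 0.19, edgeR FDR 8.40e-08). Its level went from 155 CPM to 827 CPM, and relative to the spike-ins its log2 value was 1.85. The enzymes that feed FASN did not pass: ACLY, which splits citrate into acetyl-CoA, had a log2 fold change of 0.27 (edgeR FDR 0.0839). ACACA, which makes malonyl-CoA, had 0.31 (edgeR FDR 0.141), and ACSS2, which makes acetyl-CoA from acetate, had -0.21 (edgeR FDR 0.473). The approximate 95% interval of FASN, 2.02 to 2.81, lies above those of ACLY (0.00 to 0.53) and ACACA (-0.05 to 0.67); the differences themselves were not tested.

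Of the 3 desaturases 1 was higher and 2 were lower. SCD, which turns saturated into monounsaturated fatty acids, was, in the authors' deposited table, 1.66-fold higher (log2 0.73, SE 0.18, edgeR FDR 0.00405), from 371 to 614 CPM. Relative to the spike-ins it did not pass (log2 0.16, adjusted p = 0.466). It was the most abundant of the 33 genes in the denominator group and came after FASN in the numerator group. FADS2, which starts the desaturation of polyunsaturated fatty acids, was 3.97-fold lower (log2 -1.99, SE 0.35, edgeR FDR 0.000317), from 16.0 to 4.03 CPM. FADS1, which acts later on the same chains, was 1.31-fold lower with an FDR close to the threshold (log2 -0.39, SE 0.15, edgeR FDR 0.0465). Centred on the median of all genes FADS1 no longer passed (adjusted p = 0.0541), nor with 4 degrees of freedom (adjusted p = 0.127). FADS1 and FADS2 overlap on opposite strands of chromosome 11 in GENCODE 44, and the strand setting of the counting is not given in the sources used here.

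Of the elongases, 1 of 4 passed. ELOVL2, which lengthens long polyunsaturated chains, was, in the authors' deposited table, 1.96-fold lower (log2 -0.97, SE 0.28, edgeR FDR 0.0112), from 22.5 to 11.5 CPM. ELOVL5, which lengthens shorter polyunsaturated chains, had a log2 fold change of -0.11 (edgeR FDR 0.580). ELOVL1, which makes very long saturated chains, had -0.10 (edgeR FDR 0.584), and ELOVL6, which lengthens the palmitate that FASN releases, had 0.24 (edgeR FDR 0.410). Of the genes for polyunsaturated chains, FADS1, FADS2 and ELOVL2 were thus lower and ELOVL5 was not called. ELOVL2 had an adjusted p of 0.0705 with 4 degrees of freedom.

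The acyl-CoA synthetases, which activate free fatty acids, all changed, but not together. ACSL1 was 2.14-fold higher (log2 1.10, SE 0.24, edgeR FDR 0.00151) and ACSL3, which sits on lipid droplets and the endoplasmic reticulum, 1.67-fold higher (log2 0.74, SE 0.13, edgeR FDR 0.000356) as deposited. ACSL4, which prefers arachidonic acid and other polyunsaturated chains, was, in the authors' deposited table, 1.68-fold lower (log2 -0.75, SE 0.19, edgeR FDR 0.00505). ACSL3 was the most abundant of the 3, at 162 and 271 CPM, against 126 and 74.9 CPM for ACSL4 and 11.9 and 25.5 CPM for ACSL1. Relative to the spike-ins ACSL4 was lower (log2 -1.32), and neither ACSL1 (0.53, adjusted p = 0.0674) nor ACSL3 (0.17, adjusted p = 0.280) passed. ACSL4 had an adjusted p of 0.0533 with 4 degrees of freedom.

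Reads of 6 of the 33 genes could be shared with another gene, since an exon of that gene overlaps their last exon in GENCODE 44. These were SREBF1, HMGCS1, FDPS, LSS and ACLY with a gene on the opposite strand, and CYP51A1 with genes on its own strand.

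Of 16 other sterol synthesis and control genes in the authors' deposited table, 5 were higher and 1 lower, and the median was 0.11 (log2). Among all genes 24.5% were higher and 26.4% lower. ERLIN1, a membrane protein of the endoplasmic reticulum that takes part in protein degradation there, was 2.43-fold lower (edgeR FDR 1.16e-05). TM7SF2, a sterol reductase, was 3.80-fold higher at a low level (1.85 CPM on average, edgeR FDR 0.00629), and INSIG2 did not pass (log2 -0.06, edgeR FDR 0.906). Relative to the spike-ins 1 gene of this list, TM7SF2, was higher and 7 were lower, against 11.3% and 52.3% of all genes. With 4 degrees of freedom 0 were higher and 1, ERLIN1, was lower; TM7SF2 then had an adjusted p of 0.0576.

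Of 16 genes that take up, release or store cholesterol, 7 were higher and 5 lower in the authors' deposited table, with a median of -0.06. The shares among all genes were 24.5% higher and 26.4% lower. APOE, a lipid-carrying apolipoprotein, was 28.7-fold higher (edgeR FDR 2.34e-08), from 1.00 to 28.7 CPM. SCARB1, the receptor for high-density lipoprotein, was 3.78-fold higher (edgeR FDR 9.37e-08). ABCA1, a cholesterol exporter induced by oxysterols, was 14.2-fold lower (edgeR FDR 6.08e-07), from 18.5 to 1.31 CPM.

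Other fatty acid genes were mostly not called. Of 15 in the authors' deposited table, 1 was higher and 2 lower, with a median of -0.03. Of all genes 24.5% were higher and 26.4% lower. HACD3, a dehydratase of the elongation cycle, was 1.64-fold higher (edgeR FDR 0.000500). ACSL5 was 8.14-fold lower (edgeR FDR 0.000423, 4.56 CPM on average) and FADS3, the neighbour of FADS2, 1.62-fold lower (edgeR FDR 0.00254), so that each of the 3 FADS genes was lower. By the deposited FDR the relatives ACACB (0.79), SCD5 (-0.01), ELOVL3 (-1.17), ELOVL4 (-0.85) and ELOVL7 (0.52, all log2) did not pass. Their edgeR FDRs were from 0.0634 to 0.981. Relative to the spike-ins ELOVL3 (log2 -1.74, adjusted p = 0.00712) and ELOVL4 (log2 -1.42, adjusted p = 0.0240) were lower.

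Genes that place fatty acids into glycerolipids went both ways, 5 higher and 4 lower of 14 in the authors' deposited table, with a median of -0.15. LPIN1, a phosphatidate phosphatase and SREBP target, was 3.56-fold higher (edgeR FDR 2.87e-06). PLIN3, a lipid droplet coat protein, was 2.88-fold lower (edgeR FDR 4.68e-07), LPCAT3, which puts polyunsaturated chains into phospholipids, 2.38-fold lower (edgeR FDR 5.23e-06) and DGAT2, which makes triglyceride, 3.28-fold lower (edgeR FDR 0.00318). Of 16 fatty acid oxidation genes, 7 were higher and 3 lower, with a median of 0.31. The background for both lists was 24.5% higher and 26.4% lower among all genes. CPT1A, the gate for entry into mitochondria, was 4.11-fold lower (edgeR FDR 1.41e-07), from 252 to 61.3 CPM. Enzymes of the oxidation cycle went both ways. HADHB was 2.58-fold higher (edgeR FDR 2.08e-06), HADHA 2.12-fold (edgeR FDR 5.03e-05) and ACADM 2.06-fold (edgeR FDR 4.69e-05), while the thiolase ACAA2, named after its value was seen, was 6.32-fold lower (edgeR FDR 9.00e-05). Relative to the spike-ins the 3 higher genes still passed, with log2 values of 0.80, 0.52 and 0.48.

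**Figure D5:**
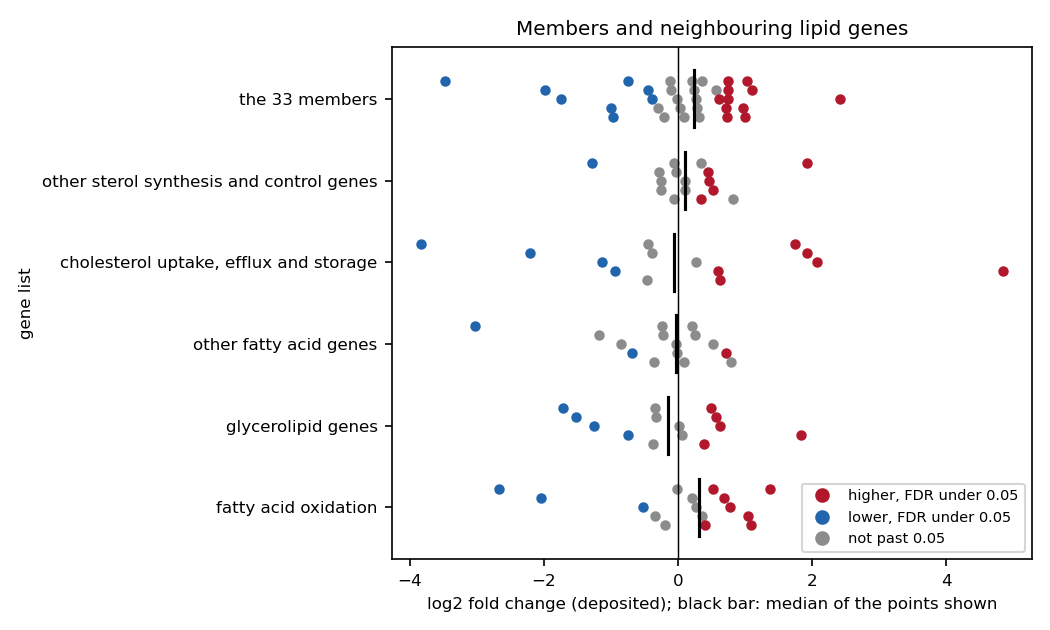
Deposited log2 fold change (x axis) of the 33 genes and of 5 lists of neighbouring lipid genes, with medians as black bars; genes with no reads in 1 group are left out. Each list has genes on both sides of 0, and the medians lie between -0.15 and 0.31.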

How the data were processed

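By the labels, RNA of 6 libraries of the IGR37 line, 3 without and 3 with doxycycline, was compared. Whether both groups of the deposited comparison are these libraries cannot be settled, as stated with the markers above. Per the labels' protocols, a forward 3' end kit was used on 500 ng of RNA. Per the submitters' processing notes, STAR, edgeR and build hg38 were used; versions, counting tool, annotation and low-count filter were not found in the labels. The authors' deposited file has, per its header, log2 fold change, linear fold change (ratio), average log2 CPM, F (a score), p-value and FDR. The deposited FDR equals a Benjamini-Hochberg adjusted p-value that was recomputed on 12617 rows (relative difference at most 9.01e-13). The table holds no counts, so no model was refitted and depth is unknown.

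The 59 spike-in rows were left out of gene counts. Degrees of freedom were solved from each F and p-value (14.03 in most rows); a value lower by 2 marks a gene with no reads in 1 group, and such genes get no fold. The members and lists were chosen with earlier results of these data known. Named genes were the 33 members, CTNNB1 and MITF among markers, up to 4 genes with the smallest p-values and an FDR under 0.05 from each other list, and relatives of members. Some genes that this rule names are not reported here. Promoters are from RefSeq (GRCh38.p14), positions from GENCODE 44. Python 3.11.15, numpy 2.4.6, pandas 2.3.3, scipy 1.17.1 and matplotlib 3.10.9 were used, and the recomputed statistics were tested on simulated data.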

Additional observations from a re-analysis of the deposited data

How the results depend on the processing

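The table gives 1 comparison without values per library, so leaving out libraries, DESeq2 and other count filters were not run. No paired analysis was possible because the table holds no values per library. The main counts were 11 higher and 8 lower genes of 33, and 6398 of all 12558 genes. At an FDR under 0.01, 9 were higher and 5 lower, and 4781 of all genes passed. With at least a 2-fold change, 4 were higher and 3 lower, and 3632 of all genes passed. With 4 degrees of freedom, 9 were higher and 4 lower, and 4140 of all genes passed; with Benjamini-Yekutieli adjustment these counts were 9, 4 and 4250. Centred on the spike-ins, 4 were higher and 17 lower, and 7987 of all genes passed. Centring on all genes and a minimum average log2 CPM of 3 each gave 11 higher and 7 lower. Of all genes 6413 passed with that centring. With that minimum, 4865 of the 9164 genes kept passed.

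Centred on the spike-ins, the median log2 fold change of the 4 SREBP control genes became -0.082; it was -0.15 for the steps to squalene, -0.45 from squalene to cholesterol and -0.28 for fatty acid synthesis, each positive as deposited. It was -2.31 for STARD4, -0.96 for desaturases, -0.68 for elongases and 0.17 for acyl-CoA synthetases. FDPS (-0.48), LSS (-0.54), NSDHL (-0.36) and ACLY (-0.30) became lower and passed; 5 more genes newly passed as lower, and 7 higher genes lost the call. With 4 degrees of freedom 6 genes lost the call: SREBF1, INSIG1, SC5D, FADS1, ELOVL2 and ACSL4. Beyond the centring itself, the cause was not tested. The promoter window of 150 bases before the start kept each motif's share inside its 95% exact binomial interval. Without depth, no detection limit can be given for genes at a few CPM.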
